A study of Homo sapiens with 6 samples.

Results

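The genes described here encode the machinery that copies DNA in S phase: 45 genes of the 57150 in the deposited expression table, chosen by name and matched by gene symbol. Each symbol had a single row. They were grouped by complex into the MCM helicase subunits with MCM10, the origin recognition and licensing factors, CDC45 with the GINS subunits, PCNA with its loader RFC, the DNA polymerases with primase, the Okazaki fragment enzymes FEN1 and LIG1, the single-strand binding complex RPA, and the enzymes of deoxynucleotide supply. Per the labels, K562, an established human erythroleukemia cell line, was transfected either with siRNAs that target αCP1 and αCP2 together or with control siRNAs, in 3 replicates per group, and RNA was taken 72 h later. The paper describes the replicates as pools of cells, and the pools of a group did not all receive the same siRNA. The αCPs are RNA binding proteins encoded by PCBP1 and PCBP2, and the study asked how their loss alters splicing. The labels give the same cell line and transient transfection for both groups, and no other allele or agent.

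Before S phase, the origin recognition complex and its partners CDC6 and CDT1 load the ring of MCM2 to MCM7 onto DNA. Geminin (GMNN) binds CDT1 and blocks a new round of loading. CDC45 and GINS then turn the ring into an active helicase, primase and polymerase α start each strand, RFC loads the PCNA clamp that tethers polymerases δ and ε, and RPA covers the exposed single strands. Transcripts for many of these proteins are known to be made around the G1/S boundary under control of E2F transcription factors.

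For each gene the table holds 1 FPKM value (mapped fragments scaled by transcript length and by sequencing depth) and 1 estimated count under each of the labels KD and CTRL. The libraries of a group are not separated, so no difference below has a replicate check and none was tested. The counts summed to 13699340 in the KD column and 11680567 in the CTRL column. Both totals are below the mapped pairs that the paper lists for each library. Counting intervals below treat these estimates as fragment counts, so their widths are nominal. A log2 ratio always means log2 of (FPKM + 1) in the KD column over (FPKM + 1) in the CTRL column, which understates the change of weakly expressed genes, and the comparison covered the 13741 genes whose mean FPKM reached 1. In this table the targeted transcripts were not both lower under the label KD. The study assessed the depletion in assays of its own, which were not analysed here. PCBP1 was at 184 FPKM (KD) and 188 FPKM (CTRL), and PCBP2 was at 531 and 342 FPKM, so the columns are named by their labels throughout. Markers of the cell line were also weak. Of 14 erythroid-line markers, 8 were under 1 FPKM in both columns and 6, GATA1 and KLF1 among them, were listed at 0. Only 1, the embryonic globin HBE1, was over 5 FPKM in both columns, at 153 and 35.4 FPKM. HBA1 was at 6.60 and 1.29 FPKM, HBG2 at 4.33 and 1.63 FPKM, and EPOR at 3.55 and 5.08 FPKM. HBA2 was at 1.48 and 0.75 FPKM, and NFE2 at 0.50 and 1.03 FPKM. Of 6 epithelial markers, 3 were over 5 FPKM in both columns, all of them keratins. KRT18 was the highest at 2309 (KD) and 1748 FPKM (CTRL), with KRT8 at 1505 and 819 FPKM and KRT7 at 540 and 604 FPKM. The others were low: EPCAM was at 3.94 and 3.26 FPKM, CDH1 at 0.36 and 0.43 FPKM, and KRT19 was listed at 0. The summed level was 170 and 45.4 FPKM for the erythroid list, most of it HBE1. It was 4358 and 3174 FPKM for the epithelial list, nearly all of it from the keratins KRT18, KRT8 and KRT7. The columns could therefore not be matched to the labelled cells or treatment from these values, and every difference below is one between columns as labelled. Any part of the markers in the results was not tested.

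All 45 replication genes passed the filter, and all were over 5 FPKM in both columns. Their counts ran from 130 to 7933 in the KD column and from 190 to 5811 in the CTRL column. Together they took 0.416% of the counts in the KD column (exact binomial 95% interval 0.412% to 0.419%) and 0.514% in the CTRL column (0.51% to 0.519%), intervals that cover counting error only. This is a log2 ratio of -0.31 between the shares, while the median of all compared genes by the same column totals was itself -0.21. As deposited, the summed counts of the 45 genes were 56963 (KD) and 60096 (CTRL), a log2 ratio of -0.08. In bulk RNA, fewer cells in S phase and less of these mRNAs per cell cannot be told apart. By FPKM, 28 of the 45 were lower in the KD column and 17 were higher, against 48.9% of all compared genes lower and 51.1% higher. The median log2 ratio was -0.23 over the 45 genes and 0.01 over all compared genes. CDT1 was the single gene with a ratio of 1 or more (background 8.51%), and 0 had a ratio of -1 or less (background 3.27%). At a milder limit of 0.5, 10 genes were lower (22.2%, background 16.1%) and 2 were higher (4.44%, background 22.6%).

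**Figure D1:**
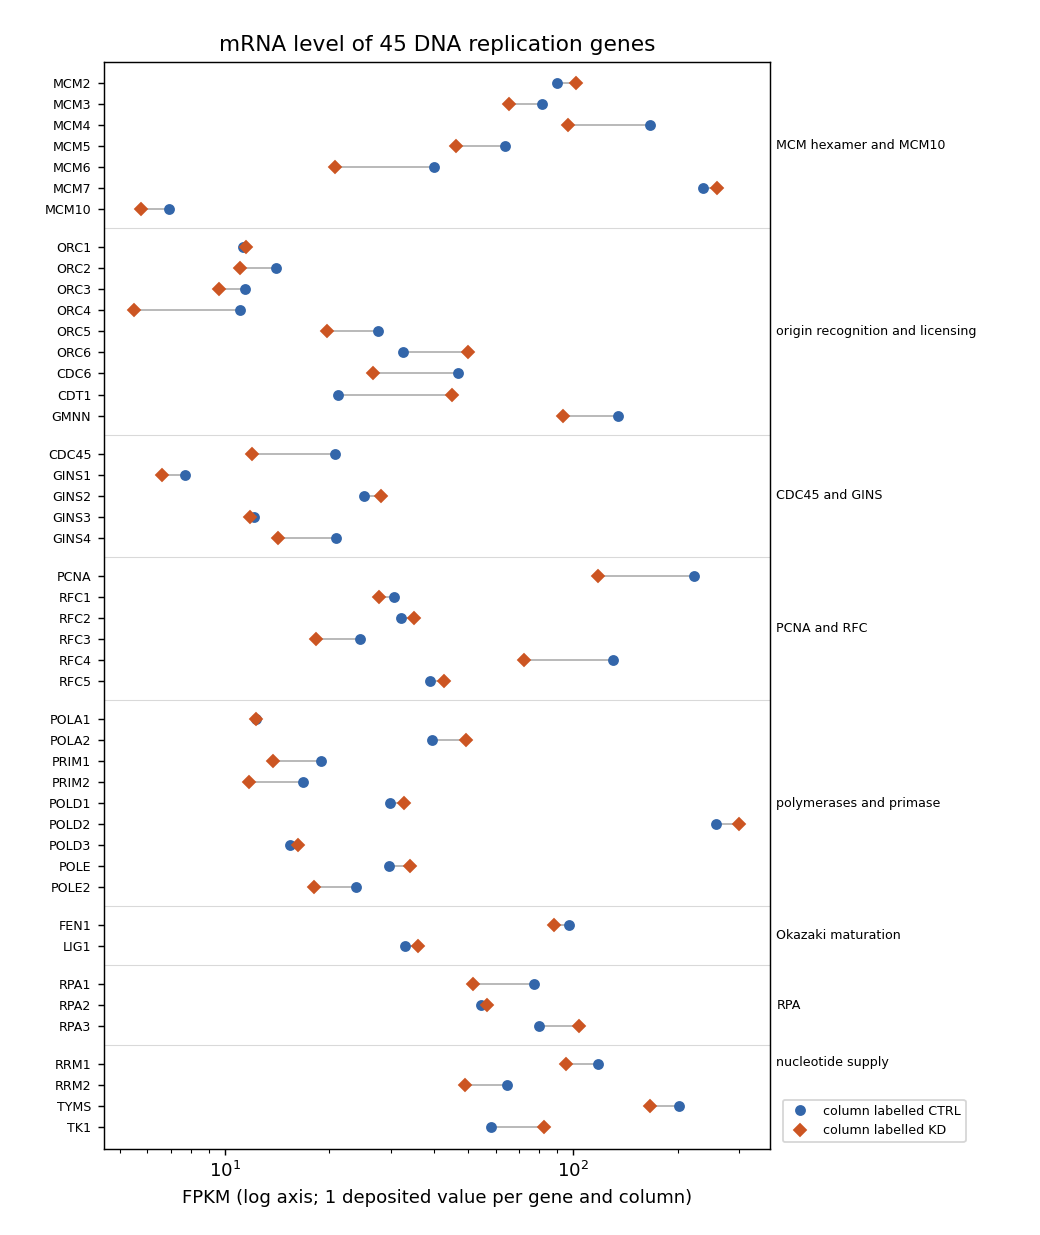
FPKM (log axis) of each of the 45 replication genes in the CTRL column (circles) and the KD column (diamonds), 1 deposited value per gene and column, grouped by complex. ORC4, PCNA, MCM4, MCM6, RFC4, CDC6 and CDC45 lie well to the left in the KD column, and CDT1 and ORC6 lie to the right.

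The subunits of the MCM ring, the motor of the replicative helicase, had ratios of both signs by FPKM. All 6 were below 0 with the GC and length dependence removed. That value is the residual of a fit of the ratio on transcript GC content and length over all compared genes. By count share (counts over the column total) relative to the median of all genes, 3 were below 0 and 3 above, with a median of -0.09. Those above were MCM2 (0.37), MCM5 (0.14) and MCM7 (0.43). MCM6 (ENSG00000076003; chromosome 2, 136597196 to 136634013 on GRCh37) was at 20.8 FPKM in the KD column, from 935 counts, and at 39.9 FPKM in the CTRL column, from 1775 counts. Its log2 ratio of -0.91 was the lowest of the ring, and 4.38% of all compared genes had a lower one. MCM4 (ENSG00000104738; chromosome 8, 48872745 to 48890720) followed, with 96.7 FPKM against 167 FPKM and a ratio of -0.78. MCM5 was at 46.1 and 63.7 FPKM, a ratio of -0.46, and MCM3 was at 65.6 and 81.4 FPKM, a ratio of -0.31. The other subunits stood slightly above 0 by FPKM. MCM2 was at 102 and 90.2 FPKM, a ratio of 0.18, which became -0.13 with the dependence removed. MCM7, the most abundant subunit, was at 260.3 and 237 FPKM, a ratio of 0.13, which became -0.18. The proteins act as a ring with a single copy of each subunit, while the mRNA levels per length were far from equal. The MCM7 level was 12.5 times the MCM6 level in the KD column (95% counting interval 11.7 to 13.4) and 5.94 times in the CTRL column (5.63 to 6.27). In the order of levels, MCM2 and MCM4 overlapped within counting error in the KD column, and every other neighbouring pair of ring subunits in either column was apart. MCM10, which acts at origin firing and is not part of the ring, was low, at 5.73 and 6.94 FPKM.

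The estimated count and the FPKM of a gene can move apart when fragments are assigned to isoforms of different length. For 27 of the 45 genes the count per FPKM was the same in both columns within 0.1 in log2, and for 18 it was not. The share within 0.1 was 64.0% over all compared genes, so such gaps are common in the whole table. MCM5 was the extreme case: it had more counts in the KD column, 1490 against 1327, and the lower FPKM. The sign of its difference therefore depends on the measure, and the same holds for RFC1, POLA1, POLA2 and POLD3. For MCM6, MCM3 and PCNA the deposited counts and the FPKM gave the same ratio within 0.02. In the MCM7 gene the exons overlap those of AP4M1 on the opposite strand, and the library kit used does not keep strand.

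**Figure D2:**
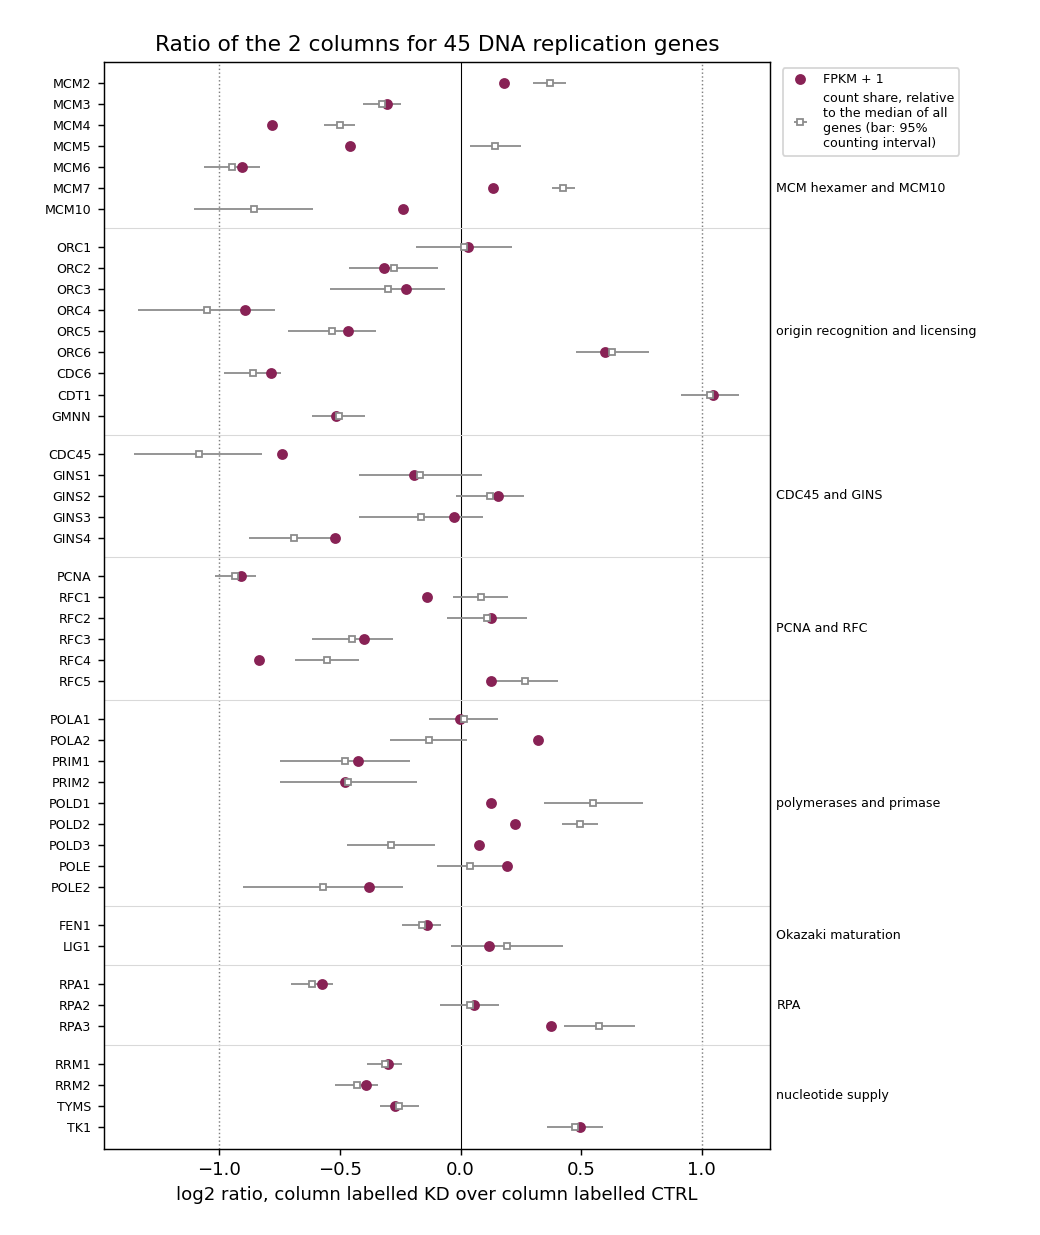
Log2 ratio of the KD over the CTRL column for each replication gene, from FPKM + 1 (filled circles) and from count shares set relative to the median of all compared genes (open squares, bars are exact binomial 95% counting intervals). Dotted lines mark -1 and 1. MCM10, MCM5, POLA2 and POLD1 show the largest gaps between both measures, and CDT1 is alone at 1.

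The licensing factors held the widest spread. CDT1 (ENSG00000167513; chromosome 16, 88870197 to 88875666 on GRCh37), which brings the MCM ring to the origin, was at 44.8 FPKM in the KD column, from 1703 counts, and at 21.2 FPKM in the CTRL column, from 819 counts. Its log2 ratio was 1.05, and 92.2% of compared genes had a lower ratio. With the GC and length dependence removed, the CDT1 ratio was 0.37 and no longer passed 1. CDC6 (ENSG00000094804; chromosome 17, 38444131 to 38460909), the ATPase that acts with CDT1 in loading, had a ratio of the opposite sign: 26.6 FPKM (KD) and 46.7 FPKM (CTRL), a log2 ratio of -0.79. Geminin was also lower in the KD column, at 93.9 against 135 FPKM, a ratio of -0.52. The level of geminin over that of CDT1 was therefore 2.09 in the KD column (95% counting interval 1.94 to 2.26) and 6.35 in the CTRL column (5.83 to 6.91). These quotients and intervals take no account of the GC and length dependence. With it removed, the ratios of geminin and CDT1 were nearer each other, at -0.40 and 0.37.

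Within the origin recognition complex, which marks the start sites, ORC4 and ORC6 stood at opposite ends. ORC4 (ENSG00000115947; chromosome 2, 148687965 to 148779173 on GRCh37) was at 5.5 FPKM in the KD column and 11.1 FPKM in the CTRL column, from 155 and 316 counts, a log2 ratio of -0.90. The log2 ratio of its deposited counts, without a pseudocount, was -1.03. ORC6 (ENSG00000091651; chromosome 16, 46723555 to 46732306) was at 49.96 and 32.6 FPKM, from 914 and 582 counts, a ratio of 0.60. ORC6 was also the most abundant subunit in both columns, at 9.09 times the ORC4 level in the KD column (7.66 to 10.8) and 2.94 times in the CTRL column (2.56 to 3.39). The remaining subunits lay between these ends. ORC5 was at 19.6 and 27.5 FPKM with a ratio of -0.47, ORC2 and ORC3 had ratios of -0.32 and -0.23, and ORC1 was level at 11.5 and 11.3 FPKM. In the CTRL column ORC3, ORC1 and ORC4 could not be ranked within counting error, and in the KD column the same was true of ORC1, ORC2 and ORC3. ORC4 shares exon bases with ACVR2A and MBD5 on the opposite strand. MBD5 was at 5.41 FPKM in the KD column and 1.23 FPKM in the CTRL column, opposite in direction to ORC4.

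CDC45 (ENSG00000093009; chromosome 22, 19466980 to 19508135 on GRCh37), the helicase cofactor, was at 12.002 FPKM in the KD column and 20.7 FPKM in the CTRL column, from 177 and 370 counts, a log2 ratio of -0.74. The GINS subunits that join it ran from -0.52 to 0.16. GINS4 was lowest, at 14.3 and 20.9 FPKM, and its exons overlap an antisense lncRNA whose listed level was also lower in the KD column, at 6.21 against 18.7 FPKM. GINS2 was both the most abundant subunit and the highest by ratio, at 28.1 and 25.1 FPKM, and GINS1 was the least abundant, at 6.6 and 7.69 FPKM. GINS3 was level, with a ratio of -0.03. For GINS1, GINS2 and GINS3 the counting interval of the count share relative to all genes included 0.

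PCNA (ENSG00000132646; chromosome 20, 5095599 to 5107272 on GRCh37), the sliding clamp, was among the genes with the lowest log2 ratios. It was at 118 FPKM in the KD column and 223 FPKM in the CTRL column, from 1725 and 3245 counts, a ratio of -0.91, and its gene is a frequent marker of proliferating cells. MCM6 and ORC4 were within 0.02 of it, and the lowest of the 45 genes depended on the setting. With a pseudocount of 0.1 it was ORC4 (-0.999, against -0.92 for PCNA), and with the GC and length dependence removed or by count share it was CDC45. The table lists 12 processed copies of the 45 genes by name, such as PCNAP1. Of these copies, 11 were at 0 in both columns, and RRM2P2 had 1 count. RFC is the clamp loader, a large subunit RFC1 with the small subunits RFC2 to RFC5, and its subunits had ratios of both signs. RFC4 was lower, at 72.6 against 130.4 FPKM, a ratio of -0.84, or -0.55 by count share relative to all genes. RFC3 was at 18.3 and 24.4 FPKM, a ratio of -0.40. RFC2 and RFC5 had ratios of 0.12 each, and RFC1 was at 27.8 and 30.7 FPKM, a ratio of -0.14. RFC4 was the most abundant and RFC3 the least abundant RFC subunit in both columns.

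The polymerase and primase genes had a median log2 ratio of 0.07 and a range from -0.48 to 0.32. The sign of this median depended on the measure: it was -0.14 with the GC and length dependence removed and -0.13 by count share relative to all genes. The primase subunits, which lay the RNA primer, had nearly the same ratio. PRIM1, the catalytic subunit, which shares 139 exon bases with the far more abundant NACA on the same strand, was at 13.8 and 18.9 FPKM, a ratio of -0.42, and PRIM2 was at 11.8 and 16.8 FPKM, a ratio of -0.48. Their levels also matched each other within counting error: PRIM2 over PRIM1 was 0.852 in the KD column (0.694 to 1.05) and 0.889 in the CTRL column (0.746 to 1.06). POLA1, the catalytic subunit of polymerase α that works with them, was level at 12.3 FPKM in each column. Its partner POLA2 had the highest ratio of the group, 0.32, at 49.5 and 39.4 FPKM, and yet had fewer counts in the KD column, 617 against 666. For polymerase δ, the lagging strand enzyme, the accessory subunit POLD2 was the most abundant of all 45 genes, at 301 FPKM in the KD column and 257 FPKM in the CTRL column, a ratio of 0.22, or -0.14 with the GC and length dependence removed. It stood at 9.19 times the catalytic subunit POLD1 in the KD column (8.36 to 10.1) and 8.6 times in the CTRL column (7.67 to 9.68). POLE, the catalytic subunit of the leading strand enzyme, was at 34.0 and 29.7 FPKM, a ratio of 0.19, while its partner POLE2 was at 18.1 and 23.8 FPKM, a ratio of -0.38.

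FEN1, the flap nuclease, and LIG1, the ligase that seals Okazaki fragments, differed little between the columns. FEN1 was at 88.5 and 97.6 FPKM, a log2 ratio of -0.14, and LIG1 was at 35.9 and 32.9 FPKM, a ratio of 0.12. The RPA subunits spread in both directions although the proteins form a stable trimer. RPA1, the large subunit, was at 51.5 FPKM in the KD column and 77.3 FPKM in the CTRL column, a ratio of -0.58. RPA3, the smallest subunit, was at 104 and 80.1 FPKM, a ratio of 0.38, and RPA2 was level at 56.7 and 54.5 FPKM. RPA3 and RPA1 had the same level within counting error in the CTRL column, at a quotient of 1.04 (0.948 to 1.13), and in the KD column RPA3 was at 2.02 times RPA1 (1.87 to 2.19).

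Among the enzymes of nucleotide supply, the subunits of ribonucleotide reductase had similar ratios. RRM1 was at 95.3 FPKM in the KD column and 118 FPKM in the CTRL column, a log2 ratio of -0.30, and RRM2, the regulated subunit, was at 49.0 and 64.6 FPKM, a ratio of -0.39. RRM1 over RRM2 was 1.94 (1.83 to 2.06) and 1.82 (1.73 to 1.92) in the respective columns. TYMS, which makes thymidylate from dUMP, was the most abundant of the group at 167 and 202 FPKM, a ratio of -0.27. Its exons share 967 bases with ENOSF1 on the opposite strand, listed at 34.1 and 66.9 FPKM. TK1, the salvage kinase for thymidine, differed from the other three in sign: it was at 82.5 and 58.3 FPKM, a ratio of 0.49, which became -0.11 with the GC and length dependence removed.

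The ratios also went with the base composition of the transcripts. Over the 45 genes the log2 ratio and the GC content of the longest annotated transcript had a Spearman rho of 0.498, and over 13298 compared genes it was 0.445. These are correlations across genes, which share both libraries and are not independent replicates. Of the 22 genes with the lower GC content, 20 were lower in the KD column and 2 were higher, with a median ratio of -0.39. Of the 23 with the higher GC content, 8 were lower and 15 were higher, with a median of 0.12. The split was at the median GC content of the 45 genes. The shares lower and higher among all compared genes on each side of it were not taken, so these counts have no background. With a quadratic dependence on GC content and log2 length over all compared genes removed, 32 of the 45 genes were below 0 against 48.6% of all genes, and the median of the 45 was -0.15. All 6 subunits of the MCM ring were then below 0, with a median of -0.53 and MCM6 lowest at -0.74, while the GINS subunits had a median of 0.08. By count share relative to all genes, 3 ring subunits were above 0. The medians by that measure were -0.09 for the ring and -0.17 for the GINS subunits. PCNA stayed at -0.83, CDC45 at -0.85, RFC4 at -0.76, CDC6 at -0.65 and ORC4 at -0.60. ORC6 stayed at 0.63, the highest value of the 45.

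**Figure D3:**
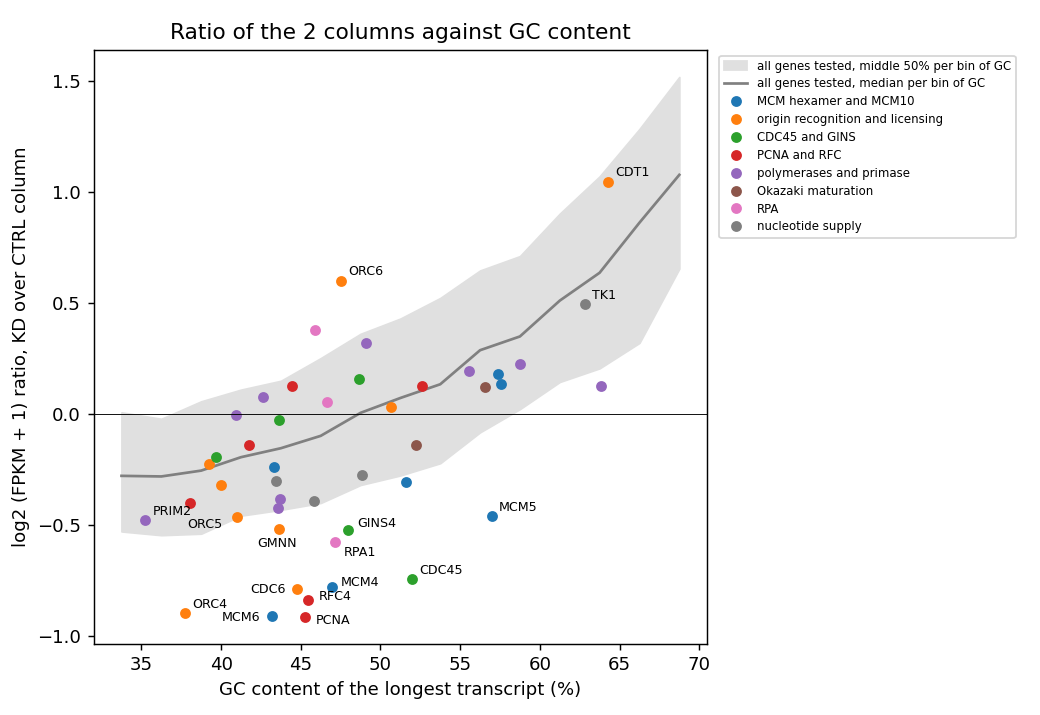
Log2 ratio of (FPKM + 1), KD over CTRL column, against the GC content of the longest transcript in percent, for the 45 replication genes colored by complex. The grey line and band give the median and the middle 50% of all compared genes per bin of GC content: CDT1 and TK1 lie at high GC near or inside the band, while PCNA, MCM6, RFC4, CDC6, MCM4, CDC45, ORC4 and MCM5 are among the genes below it and ORC6 lies above it.

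A direction that did not depend on the measure was asked for next. A total of 23 of the 45 genes (51.1%, background 37.9% of 13298 genes) were below 0 by FPKM, with the GC and length dependence removed, and by count share relative to all genes. These were MCM3, MCM4, MCM6 and MCM10, ORC2 to ORC5 with CDC6 and GMNN, CDC45 and GINS4, PCNA with RFC3 and RFC4, PRIM1, PRIM2 and POLE2, FEN1, RPA1, and RRM1, RRM2 and TYMS. A further 7 (15.6%, background 39.2%) were above 0 by all 3 measures, namely ORC6, CDT1, GINS2, RFC5, POLE, RPA2 and RPA3. By count share, the counting intervals of GINS2 (-0.02 to 0.26), POLE (-0.10 to 0.18) and RPA2 (-0.08 to 0.16) included 0. Of the lower genes, ORC3 (-0.02) and MCM10 (-0.06) were close to 0 with the GC and length dependence removed. The first and second measures rest on the same FPKM values, and the counts were estimated from the same reads. The signs of the 3 measures are therefore not independent. The other 15 had mixed signs. The groups of mixed sign included MCM2, MCM5 and MCM7 of the ring and POLD1, POLD2 and POLD3 of polymerase δ.

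The promoters of these genes were read for the E2F binding word, since many of them are known to be under this control. RefSeq promoter windows on GRCh38.p14, from 250 bases before to 50 bases after the start of the gene, were found for 39 of the 45, and MCM4, MCM5, GINS4, POLD3, RPA2 and RPA3 had no entry. The words TTTCCCGC, TTTGGCGC, TTTCGCGC and TTTGCCGC were searched on both strands, and matches on opposite strands can overlap. At least 1 word was present in 18 of the 39 windows (46.2%), in 11 of 56 windows of other replication genes (19.6%) and in 3.33% of all 27305 windows. The median GC content of the windows was 65%, 64.7% and 58.3% in the same order. Shown here are 30 bases around a word, 5′ to 3′ on the strand of the gene, for CDT1 at the upper end of the ratios, for PCNA, MCM6 and CDC6 near the lower end, for MCM7 as the most abundant MCM subunit and for TYMS as a gene near the median, with the word in capitals.
CDT1: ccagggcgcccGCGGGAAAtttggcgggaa
PCNA: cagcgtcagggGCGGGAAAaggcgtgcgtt
MCM6: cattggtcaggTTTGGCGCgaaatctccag
CDC6: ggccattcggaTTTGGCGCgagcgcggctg
MCM7: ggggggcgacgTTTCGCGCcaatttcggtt
TYMS: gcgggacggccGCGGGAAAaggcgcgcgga
These lie at chr16:88803743-88803772 (plus strand) for CDT1, chr20:5126663-5126692 (minus) for PCNA, chr2:135876515-135876544 (minus) for MCM6, chr17:40287875-40287904 (plus) for CDC6, chr7:100101388-100101417 (minus) for MCM7 and chr18:657603-657632 (plus) for TYMS, all on GRCh38.p14. CDT1 and PCNA, toward opposite ends of the 45 ratios, carry the same word, GCGGGAAA, which is TTTCCCGC read on the other strand. Of the 18 genes with a word, 7 were higher and 11 lower (median log2 ratio -0.11), and of the 21 without, 7 were higher and 14 lower (median -0.30). The presence of a word is a description of these windows and says nothing of binding.

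The wider pathway was described by 68 other replication genes in 8 groups, all of which passed the filter. Their median log2 ratio was -0.23, with 48 lower and 20 higher, against 48.9% of all compared genes lower. With the GC and length dependence removed, 43 were lower and 25 higher, against 48.6% of all genes lower. By FPKM, a ratio of -1 or less was reached by 5 of the 68 (background 3.27%) and a ratio of 1 or more by 1 (background 8.51%). ASF1A, a histone chaperone, was at 4.87 FPKM in the KD column and 14.6 FPKM in the CTRL column, a ratio of -1.41. DNA2, a helicase-nuclease of Okazaki fragment processing, was at 4.55 and 13.0 FPKM, a ratio of -1.34. DSCC1, a subunit of an alternative clamp loader, was at 2.82 and 7.93 FPKM, a ratio of -1.22. CLSPN (claspin), which links the fork to checkpoint signalling, was at 11.7 and 27.0 FPKM, a ratio of -1.14, and the MCM paralog MCM8 was at 5.93 and 13.9 FPKM, a ratio of -1.10. The gene on the other side was LRWD1, an ORC-associated protein, at 18.3 and 6.81 FPKM, a ratio of 1.30. With the GC and length dependence removed, LRWD1 (0.79), CLSPN (-0.92) and MCM8 (-0.86) no longer passed 1 or -1, and ASF1A, DNA2 and DSCC1 still did.

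The regulators upstream of the machinery also lay mostly below 0, against 48.9% of all compared genes below 0. Of the 13 E2F, DP and pocket protein genes, 11 were lower, with a median of -0.49 and a range from -0.84 (TFDP1) to 0.12 (RBL2). E2F1 was at 27.5 and 32.7 FPKM, a ratio of -0.24. Of the 5 S-phase kinase partners, 3 were lower and 2 higher. CCNE1 had a ratio of -0.68, CCNE2 of -0.92 and CCNA2 of -0.84, while CDK2 was higher by FPKM, at 91.0 against 62.7, and not by count, at 1528 against 1592. CDC25A, the phosphatase that activates CDK2, had a ratio of 0.11 and was above 0 by all 3 measures. The 9 accessory polymerase and maturation genes had a median of 0.10, and RNASEH2A and RNASEH2C, subunits of the enzyme that removes ribonucleotides from DNA, had ratios of 0.82 and 0.58. In the remaining groups the median was -0.18 for origin firing (9 of 12 lower), -0.36 for fork protection (7 of 11 lower), -0.32 for chromatin assembly (4 of 5 lower), -0.19 for other nucleotide supply (7 of 10 lower) and -0.43 for the topoisomerases (3 of 3 lower). With the GC and length dependence removed, the numbers lower were 8, 6, 4, 6 and 2 in the same order. They were 11 for the E2F group and 3 for the S-phase kinase partners.

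**Figure D4:**
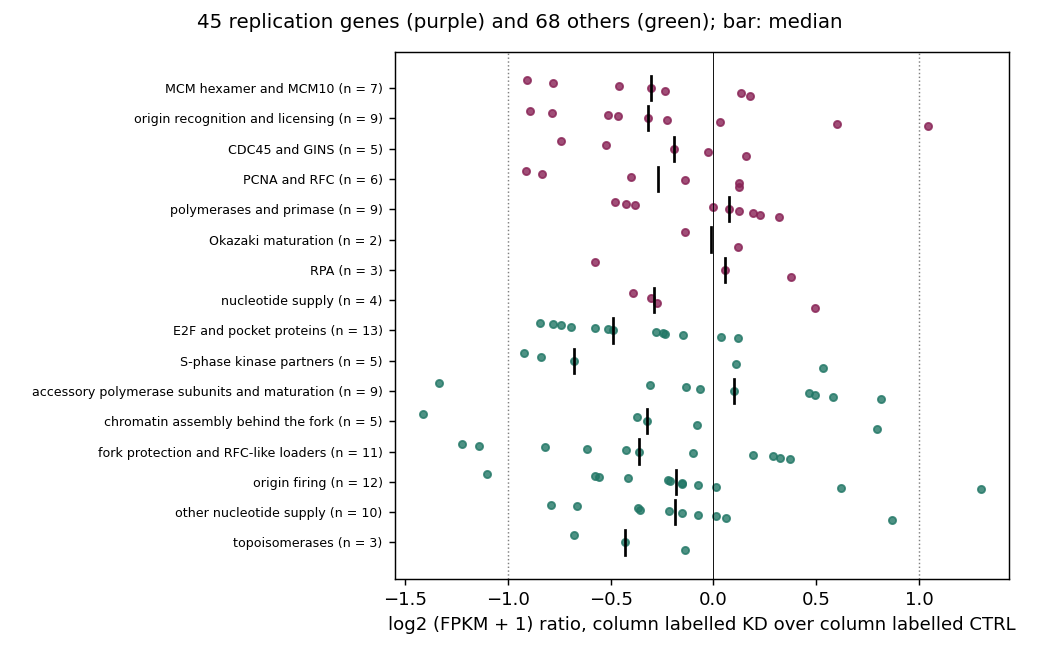
Log2 ratio of (FPKM + 1), KD over CTRL column, for the 45 replication genes by complex (purple) and for 68 other replication genes by role (green), each point a gene and each bar the group median. The E2F and S-phase kinase groups have the lowest medians (-0.49 and -0.68), and the polymerase groups in both lists have medians above 0 by FPKM (0.07 and 0.10), the first of which is -0.14 with the GC and length dependence removed.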

How the data were processed

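RNA-seq libraries came from 3 pools per group. Per the labels and the study's methods, reads were aligned with TopHat 1.4.1 to hg19 and Ensembl transcripts, and Cuffdiff 2.2.0 gave the deposited FPKM and the deposited estimated counts. How the authors combined the libraries of a group is not given in the sources used here. Columns of the authors' own comparison (fold change, p-value, FDR) and of averaged, highest and lowest FPKM were not used. The genes and lists were chosen with earlier results of these data known. With the libraries merged in each column, ratios were described and no test was made.

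Log2 ratios used a pseudocount of 1 and a mean FPKM of at least 1. All 45 genes could be named. Values are given for the highest and lowest of each complex, and of the other replication genes for those past a ratio of 1 or -1, while the further ones named were chosen after their values were seen. Counting intervals (95%) are exact binomial on rounded counts for ratios and shares, exact Poisson for level orders, and cover counting error only. They rest on the deposited estimated counts and may differ from the counting error of the raw fragments. GC content and length came from the longest GENCODE release 44 transcript on GRCh37, found for 13298 genes, and promoters from RefSeq. Functions were tested on simulated data. Computation ran in scipy 1.17.1 and pandas 2.3.3 on Python 3.11.15, with numpy 2.4.6, and plots in matplotlib 3.10.9.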

Additional observations from a re-analysis of the deposited data

How the results depend on the processing

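No paired analysis was possible because the libraries of each group are merged in the deposited columns, and leaving out single replicates was not run for the same reason. Dividing counts by the column totals moved the median of all genes by -0.22. The median of the 45 genes was then -0.46 (-0.25 relative to all genes), and that of the 68 other replication genes was -0.44. Without setting shares relative to all genes, 0 of the 45 were at 1 or more and 6 at -1 or less. The median of all compared genes was itself -0.21 at that setting, so the 6 cannot be read as particular to the 45. Relative to all genes, CDT1 (1.03) was past 1, and CDC45 (-1.09) and ORC4 (-1.05) were past -1. MCM6 (-0.95), PCNA (-0.93), CDC6 (-0.86) and MCM10 (-0.86) were then short of -1. With the GC and length dependence removed, 0 were at 1 or more. With a limit of 0.5, 2 were higher and 10 lower, because the limit is milder. With counts as deposited, an alternative chosen after seeing the data, 2 were at -1 or less. The shares of all genes past 1 or -1 were taken for the FPKM ratio only. The calls by counts, by count shares or with the dependence removed therefore have no background. The causes were not tested otherwise. A pseudocount of 0.1, no filter, an FPKM over 5 in at least 1 group and centring changed the sign of 0 of the 45 ratios, and with a filter on low values all 45 genes were retained, so the filters say nothing about stability. The sign changed for 12 genes with the GC and length dependence removed and for 5 with counts as deposited. It changed for 8 with counts divided by totals, before these were set relative to all genes. The deposited estimated counts gave the 45 log2 ratios a nominal counting half-width of 0.05 to 0.33.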
